A study of Homo sapiens with 14 samples.

Results

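Interferon-stimulated genes are transcribed when interferon binds its receptors, and their products block virus replication or load peptides onto MHC class I molecules. A list of 57 such genes was chosen by symbol and all 57 were found among the 27142 genes of the raw count table. Of these, 47 passed the filter on low counts that left 13371 genes for testing, and 10 did not. The genes were followed in IMR90 cells, a line of human fetal lung fibroblasts of wild-type genotype, exposed to ddC. ddC (2',3'-dideoxycytidine) is a nucleoside analog that stops DNA strand extension by the mitochondrial DNA polymerase. The dose was 20 uM, for 24, 48, 72 or 96 h, with 3 libraries per time, and 2 libraries came from untreated cells that had received the water vehicle. The series addressed how transcripts change as mitochondrial DNA is lost, and its replicates are described as biological. The untreated libraries are labelled as 4 days, whereas the design text names a 0 h time. No time-matched control is therefore known for 24, 48 and 72 h, and by the design text 96 h has none either. Hours of ddC and the labelled day run together, so comparisons between treated times cannot tell them apart. All libraries come from 1 cell line, and ddC was the only agent.

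Type I interferons signal through the receptor IFNAR1 and IFNAR2 and the kinases JAK1 and TYK2 to a transcription factor complex that holds STAT2 and IRF9. That complex binds the interferon-stimulated response element, while interferon gamma acts through gamma-activated sites. Mitochondrial DNA that reaches the cytosol can be sensed by cGAS, which acts through STING on interferon genes, and fibroblasts are capable of this response.

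Total counts were 9398703 to 12147402 per library, and the 57 genes held 0.266% to 0.293% of them. Levels are given as counts per 1000000 counts (CPM) after TMM scaling, and changes as fitted log2 fold changes ± SE from edgeR's quasi-likelihood test with Benjamini-Hochberg adjustment over all 13371 tested genes. A gene was called at an adjusted p under 0.05. All 7 fibroblast markers were tested, and their summed level was 33114 to 33853 CPM in untreated cells and 38806 to 42153 CPM at 96 h. Among markers of other cells, CD3E, CLEC4C, LILRA4, IL3RA, PECAM1, CDH5 and CDH1 had 0 counts in every library, and the 7 leukocyte markers summed to 52.5 to 54.5 CPM untreated and 48.6 to 50.6 CPM at 96 h. The 4 plasmacytoid dendritic markers, of which only TCF4 had counts, summed to 97.1 CPM in both untreated libraries and 87.7 to 102 at 96 h, and the 4 endothelial markers to 39.0 to 45.1 and 37.9 to 42.4. The 4 epithelial markers summed to 50.8 to 51.8 CPM untreated and 65.5 to 72.9 CPM at 96 h. A second measure moved with time. Counts on genes opposite 121 abundant genes, per 1000 counts on those genes, were 0.754 and 0.807 in untreated cells, 0.689 to 0.807 at 24 h, 0.795, 0.805 and 0.991 at 48 h, 0.917 to 1.02 at 72 h and 0.978 to 1.04 at 96 h. The ranges at 72 and 96 h overlapped, and both lay above the untreated libraries. The outcome with this measure as a covariate is given beside the 96 h calls. In bulk RNA, fewer expressing cells and less RNA per cell cannot be told apart.

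A feature that many, but not all, of these genes share is in their promoters. RefSeq promoters (GRCh38.p14, 250 bases before to 50 after the start) were matched by symbol for 46 of the 57. The core of the interferon-stimulated response element was searched on both strands as a pair of GAAA half-sites with any 2 bases between them, or TTTC on the other strand. It was found in 30 of the 46 (65.2%), against 4.38% of all 27305 genes with a promoter. A gene counted when any of its promoters held a match. The list was chosen as interferon-stimulated genes, so these shares describe it and test nothing. The gamma-activated site, TTCNNNGAA, was found in 15 (32.6%), against 9.38% of all genes. In MX1, IFITM1, BST2, IFI27 and EPSTI1 the 2 patterns overlapped. A match describes letters and does not show that a factor binds there. The windows below were chosen because their genes carry the results that follow, and capitals mark the element. ISG15 and IFIT1 are classical interferon targets, B2M and TAP1 serve antigen presentation, and LGALS3BP, PLSCR1 and DTX3L passed the test at 96 h. ISG15 lies on the + strand at chr1:1013369-1013414, IFIT1 on + at chr10:89392492-89392544, B2M on + at chr15:44711358-44711403, and TAP1 on - at chr6:32853808-32853853. LGALS3BP lies on - at chr17:78979957-78979996, PLSCR1 on - at chr3:146544662-146544701, and EPSTI1 on - at chr13:42992267-42992306. DTX3L on + at chr3:122564317-122564341 and PARP9 on - at chr3:122564317-122564356 share 1 element, read from opposite strands.
ISG15: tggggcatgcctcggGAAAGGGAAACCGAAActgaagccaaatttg
IFIT1: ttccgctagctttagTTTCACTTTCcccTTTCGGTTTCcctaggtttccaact
B2M: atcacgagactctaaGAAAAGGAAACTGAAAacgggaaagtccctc
TAP1: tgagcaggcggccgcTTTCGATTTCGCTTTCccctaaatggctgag
LGALS3BP: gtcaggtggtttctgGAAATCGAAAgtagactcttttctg
PLSCR1: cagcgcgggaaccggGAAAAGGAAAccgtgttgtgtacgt
EPSTI1: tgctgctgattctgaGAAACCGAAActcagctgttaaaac
DTX3L: gacctccagggaagcGAAACTGAAA
PARP9: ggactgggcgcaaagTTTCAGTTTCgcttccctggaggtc
The element lay 113 bases before the start in ISG15, 144 in B2M, 58 in LGALS3BP, 79 in PLSCR1 and 50 in EPSTI1. No match of the response element core was found in the promoters of STAT2, IRF1, IRF9, ADAR, IFI35, PSMB9, HLA-B or HLA-C, which says only that these letters are not in that stretch. IRF1, IRF9 and IFI35 hold a match of the gamma-activated site.

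Untreated cells already expressed part of the program, and another part was close to silent. On the scale of CPM per kilobase of transcript, which allows levels to be compared between genes, B2M, the light chain of MHC class I, was highest at 794. IFITM3, which blocks virus entry at endosomes, followed at 254, then HLA-B at 150, IFITM2 at 120 and HLA-C at 97.5. ADAR, which edits double-stranded RNA, was at 42.7, ISG15, a ubiquitin-like modifier, at 19.8, and STAT2 at 18.7. The lower end held IFIT1, which binds foreign RNA 5' ends, at 2.59 and the virus-trapping GTPase MX1 at 0.232.

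**Figure D1:**
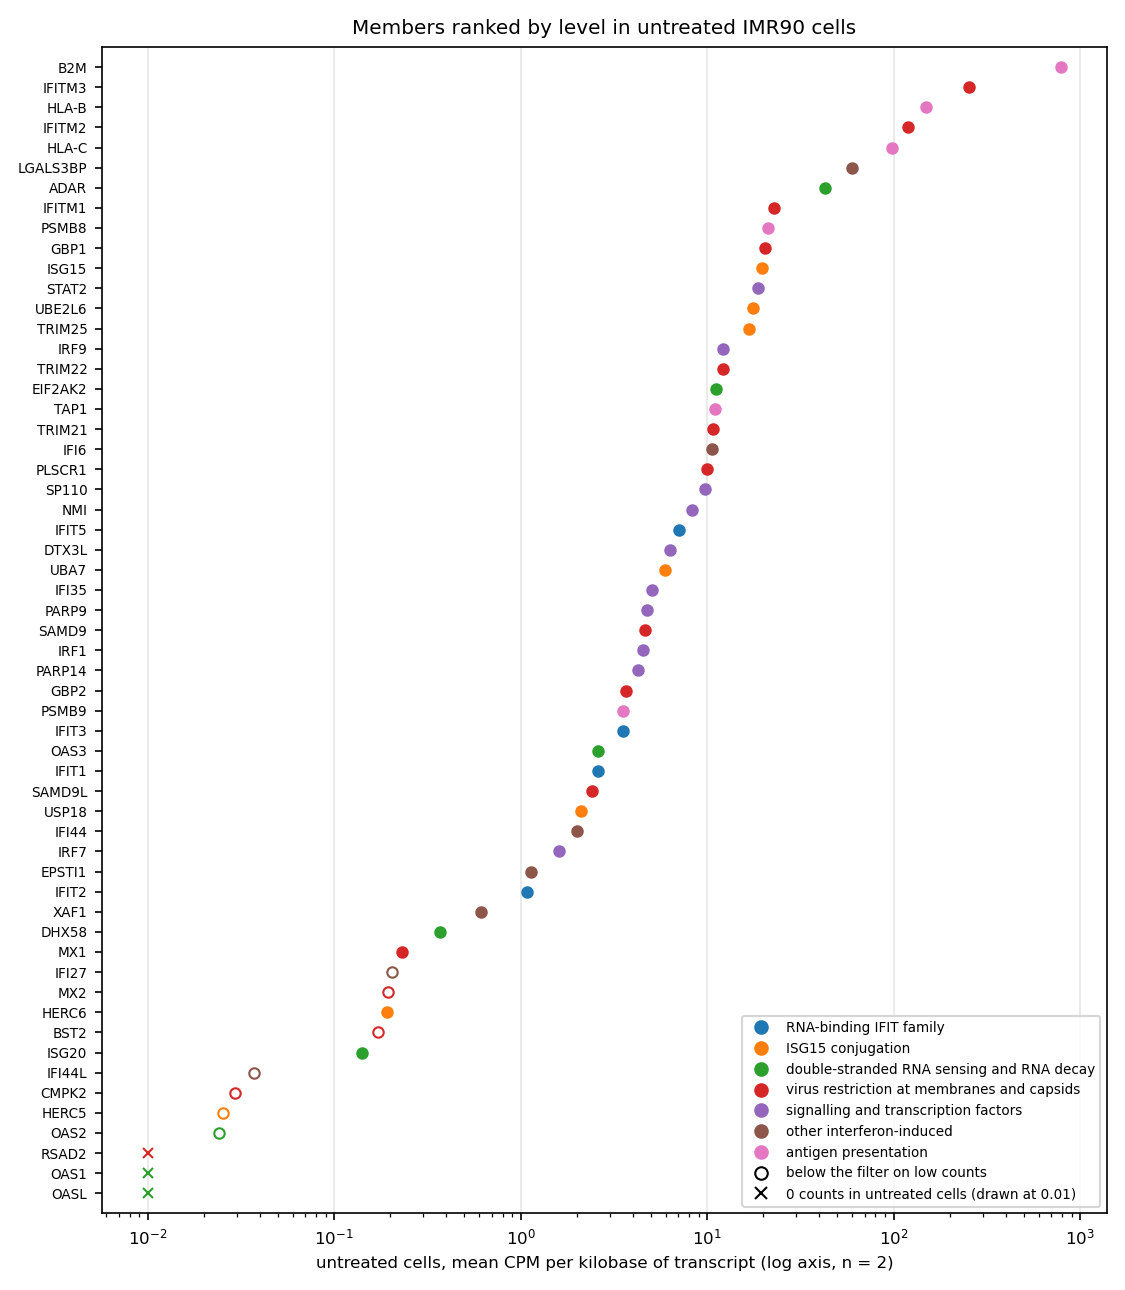
Mean level of each of the 57 genes in the 2 untreated libraries, in CPM per kilobase on a log axis, coloured by role. Open circles are genes below the filter on low counts and crosses are genes with 0 counts in untreated cells. B2M at 794 is highest, and RSAD2, OAS1 and OASL are at 0.

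The 10 genes below the filter are among those that interferon induces from a low base. RSAD2 (viperin) had 0 counts in all 14 libraries, OAS1 3 in total, OAS2 4, OASL 8, CMPK2 12, BST2 27, HERC5 32, IFI27 36, IFI44L 50 and MX2 82. The highest count of any of them in 1 library was 10. A library with 0 counts allows a level of up to 3 counts, which is 0.243 to 0.314 CPM at these depths and covers counting error only. OAS1 had 1 count in each of a 24 h, a 72 h and a 96 h library. With no filter on low counts edgeR tested 9 of the 10, all but RSAD2, and called none of them in any comparison. The main fit has no test of these genes, and the counts of tested genes below do not speak for them.

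At 24, 48 and 72 h no tested gene of the list passed. The highest fold changes among genes with an average log2 CPM of 1 or more were IFI35 (0.45), IRF1 (0.39) and PSMB9 (0.28) at 24 h, ISG15 (0.49), IFI35 (0.30) and IRF1 (0.28) at 48 h, and TRIM22 (0.40), ISG15 (0.33) and IRF7 (0.32) at 72 h. The lowest were PLSCR1, TRIM25 and SAMD9 at 24 h (-0.12, -0.10 and -0.09), DTX3L, PLSCR1 and EIF2AK2 at 48 h (-0.21, -0.20 and -0.18), and IFI44, PLSCR1 and SAMD9 at 72 h (-0.54, -0.26 and -0.25). At 24 h edgeR called 0 of 47 (0% of all tested genes were called), with 4 at an unadjusted p under 0.05 (3.42% of all genes), and DESeq2 and limma-voom also called 0. The median log2 fold change was 0.09, against 0.00497 over all genes, and 36 of 47 were above 0 (51.9% of all genes). In 10 genes the 24 h libraries all lay above the untreated ones (7.8% of all genes) and in 2 below (8.11%). At 48 h edgeR called 0 (0.00748% of all genes), 6 had an unadjusted p under 0.05 (6.01%), the median was 0.04, 31 were above 0 (51%), and DESeq2 and limma-voom called 0. The groups did not overlap in 9 genes that were higher (11.7%) and 7 that were lower (12%). At 72 h edgeR called 0 (0.179%), 7 had an unadjusted p under 0.05 (7.24%), the median was 0.05, 27 were above 0 (51.3%), and DESeq2 and limma-voom called 0. The groups did not overlap in 10 genes that were higher (12%) and 7 that were lower (12.2%). These 4 comparisons with untreated cells share the same 2 control libraries. Without untreated replicate 2 the median at 24 h was 0.06 and at 72 h 0.01, and without untreated replicate 1 the median at 48 h was 0.10.

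At 96 h 6 of the 47 passed, a share of 12.8%, against 5.68% of all tested genes. TRIM22, HLA-B, HLA-C and LGALS3BP were higher (3.57% of all genes were called higher) and DTX3L and PLSCR1 were lower (2.11%). The median log2 fold change was 0.12, against -0.0039 over all genes, and 32 of 47 were above 0 (49.2% of all genes). At an unadjusted p under 0.05 there were 17 (19.8%). In 19 genes all 3 libraries at 96 h lay above both untreated libraries (20.6% of all genes), and in 7 all lay below (19.8%). The fold changes of the called genes were all under 1 on the log2 scale. Calls at 96 h rest on few libraries. Without untreated replicate 2 only TRIM22 was called (174 of all genes). Without untreated replicate 1, 2 genes were called (265 of all genes). The count was also 2 without the 96 h replicate 1 (425 of all genes) or replicate 3 (431). With the opposite-strand measure as a covariate 0 were called (83 of all genes).

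**Figure D2:**
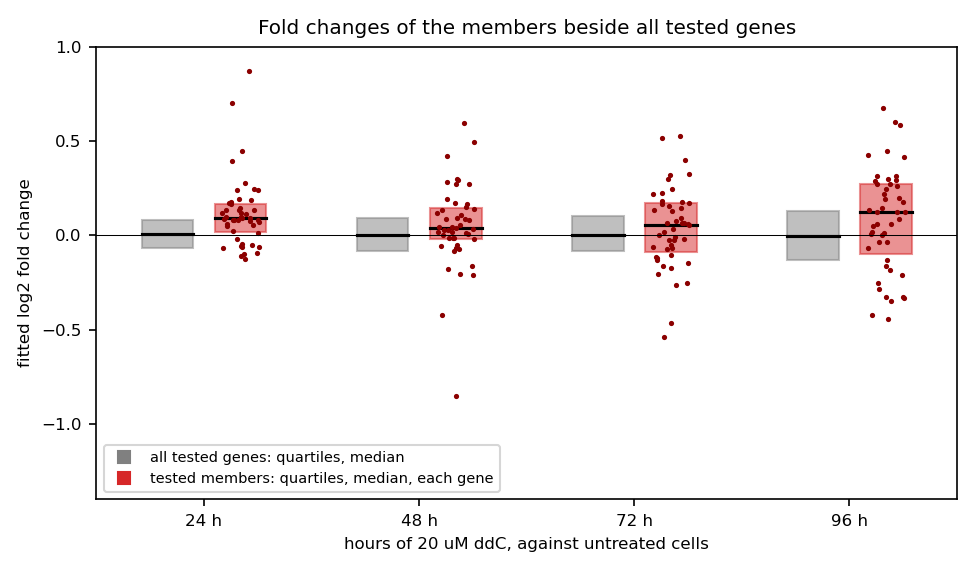
Fitted log2 fold changes against untreated cells at each time. Boxes give the quartiles and the line the median of all tested genes (grey) and of the 47 tested interferon-stimulated genes (red), whose single values are the points. The median of the list is 0.09, 0.04, 0.05 and 0.12 at the 4 times, while that of all genes stays near 0.

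**Figure D3:**
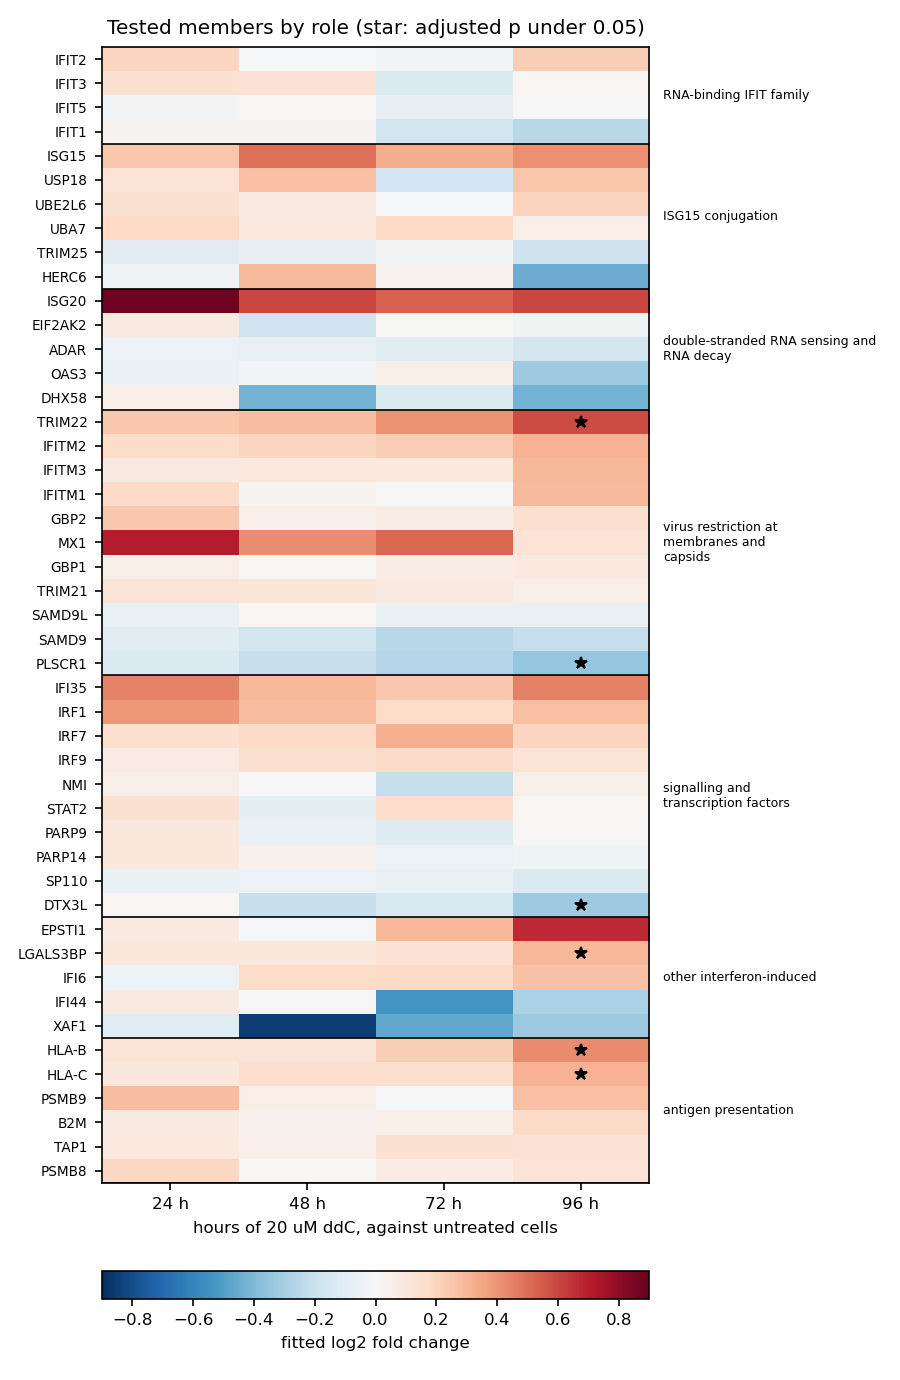
Fitted log2 fold changes of the 47 tested genes by role, at 24 to 96 h against untreated cells. Red is higher, blue is lower, and stars mark an adjusted p under 0.05. The 6 stars are all at 96 h, 2 of them in antigen presentation.

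Of 6 antigen presentation genes, all tested, 2 rose at 96 h (3.57% of all tested genes were called higher). All 6 had a fold change above 0 (49.2% of all tested genes), with a median of 0.22. HLA-B, a heavy chain of MHC class I, was at 245 and 234 CPM in untreated cells, at 250, 259 and 272 CPM at 24 h, 272, 261 and 247 at 48 h, 255, 262 and 320 at 72 h, and 321, 306 and 339 at 96 h. Every 96 h library was above every untreated, 24 h and 48 h library, while 1 of the 72 h libraries reached the 96 h range. The change at 96 h was 0.43 ± 0.08 (adjusted p = 0.00275). HLA-C, another class I heavy chain, was at 154 and 152 CPM untreated, 148, 170 and 171 at 24 h, 183, 167 and 158 at 48 h, 161, 160 and 186 at 72 h and 191, 182 and 198 at 96 h. The 96 h libraries did not overlap with the untreated ones, and rose by 0.32 ± 0.08 (adjusted p = 0.0212). Both class I genes have several copies in the reference, 6 for HLA-B and 7 for HLA-C, and similar paralogs, so the split of reads between them is uncertain, and HLA-B overlaps MIR6891 on the same strand.

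B2M did not pass. It was at 813 and 744 CPM untreated and 859, 899 and 878 CPM at 96 h, groups that did not overlap, with a change of 0.17 ± 0.07 (adjusted p = 0.177). TAP1, which pumps peptides into the endoplasmic reticulum, had 0.13 (95% interval -0.05 to 0.31). The immunoproteasome subunits PSMB8 and PSMB9, which cut peptides for class I, had 0.12 (-0.06 to 0.31) and 0.27 (-0.30 to 0.85). TAP1 overlaps the antisense gene PSMB8-AS1, and TAP1, PSMB8 and PSMB9 have 8 copies each in the reference. The constitutive proteasome subunits PSMB5, PSMB6 and PSMB7 were at 0.00, -0.05 and -0.07, with 0 of 3 called (5.68% of all tested genes).

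Beyond the list, 1 of 19 other genes of class I presentation passed at 96 h, a share of 5.26% that is near the 5.68% of all tested genes. HLA-E, a non-classical class I chain that natural killer cells read, was at 142 and 140 CPM untreated and 173, 171 and 178 at 96 h, and rose by 0.30 ± 0.07 (adjusted p = 0.00742). NLRC5, the class I transactivator, had -0.17 (95% interval -0.51 to 0.17). Of 9 genes of MHC class II, 4 were tested and 1 passed, too few to set against the 5.68% of all tested genes. HLA-DMA, a peptide exchange factor of class II, was at 3.73 and 3.17 CPM untreated and 7.09, 5.66 and 6.14 at 96 h (0.86 ± 0.22, adjusted p = 0.0239), while HLA-DRA, a class II chain, had 0 CPM in all libraries.

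Among genes that restrict viruses at membranes and capsids, 1 of 11 tested rose and 1 fell at 96 h. Of all tested genes 3.57% were called higher and 2.11% lower. TRIM22, a ring-finger protein that restricts several viruses, was at 36.5 and 38.4 CPM untreated, 45.5, 46.4 and 41.2 at 24 h, 39.8, 49.7 and 46.3 at 48 h, 52.7, 51.1 and 44.5 at 72 h, and 59.4, 56.5 and 52.8 at 96 h. All 12 treated libraries were above both untreated ones, at every time. The change was 0.24, 0.27 and 0.40 at 24, 48 and 72 h, none of which passed, and 0.59 ± 0.10 at 96 h (adjusted p = 0.00067). PLSCR1, a membrane protein that also hinders virus entry, was at 22.5 and 21.4 CPM untreated, 19.7, 19.7 and 21.0 at 24 h, 20.9, 17.5 and 18.8 at 48 h, 17.5, 18.3 and 19.1 at 72 h and 16.7, 18.8 and 16.2 at 96 h. Treated libraries lay below the untreated ones at each time, and the fall at 96 h was -0.35 ± 0.10 (adjusted p = 0.0462). DESeq2 did not call it (adjusted p = 0.107), nor did edgeR without the filter (0.0588).

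**Figure D4:**
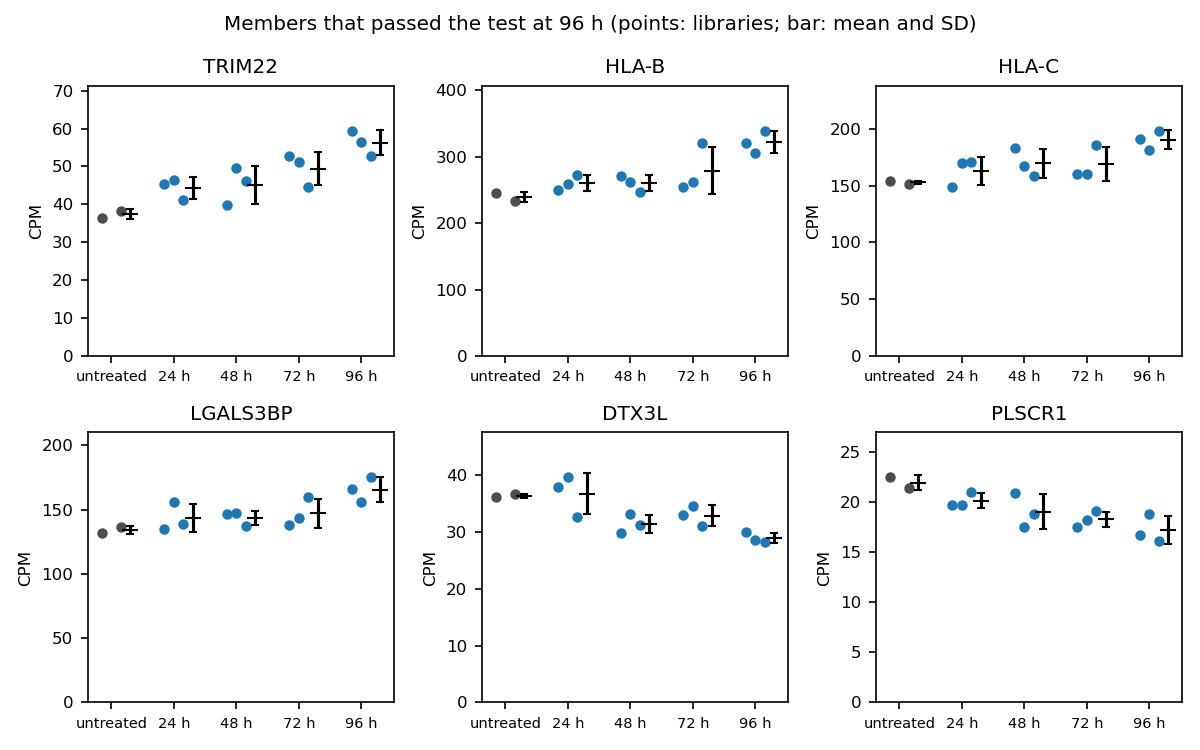
Level in CPM of the 6 genes that passed at 96 h, in each of the 14 libraries. Points are libraries and the bar beside them is the mean and SD of the group; axes start at 0. TRIM22, HLA-B, HLA-C and LGALS3BP have their highest group mean at 96 h, DTX3L and PLSCR1 their lowest.

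The 3 IFITM genes, entry inhibitors in 1 cluster, had like changes at 96 h without passing in edgeR. How reads that map to several genes were counted is not given, so these may not be 3 separate observations. IFITM3 was at 172 and 165 CPM untreated and 202, 199 and 218 at 96 h (0.30 ± 0.10, adjusted p = 0.0991). IFITM2 was at 90.6 and 83.4 CPM untreated and 112, 102 and 111 at 96 h (0.31 ± 0.10, adjusted p = 0.0737). In both genes the 96 h libraries lay above the untreated ones, and DESeq2 called both. IFITM1 had 0.29 ± 0.13 (adjusted p = 0.199) with groups that overlapped. MX1 had 0.12 at 96 h, with an interval of -0.86 to 1.10 that reflects its low level of 0.434 and 1.15 CPM untreated and 0.691, 0.87 and 1.01 CPM at 96 h. SAMD9 was at -0.21 (adjusted p = 0.263). The other tested genes of this role ranged from -0.07 to 0.14.

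The classical targets ISG15 and IFIT1 did not pass at any time. ISG15 was at 12.5 and 13.7 CPM untreated, 12.4, 14.7 and 19.0 at 24 h, 21.1, 17.7 and 16.6 at 48 h, 16.1, 15.2 and 17.9 at 72 h and 18.8, 15.9 and 17.6 at 96 h. From 48 h on every treated library was above both untreated ones, and the change at 96 h was 0.41 ± 0.15 (adjusted p = 0.113). IFIT1 was at 12.9 and 10.3 CPM untreated and 8.64, 9.92 and 10.7 at 96 h, with overlap, a change of -0.25 (95% interval -0.62 to 0.11). All 4 IFIT genes were tested at 96 h, between -0.25 and 0.22, with 0 called (5.68% of all tested genes). Among the 6 tested genes of ISG15 conjugation 0 were called, too few genes to set against that share. TRIM25, a ubiquitin ligase of RIG-I, had -0.18 with the 96 h libraries below the untreated ones.

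Genes of double-stranded RNA sensing and RNA decay had a median of -0.16 at 96 h over the 5 tested. Their range was -0.42 to 0.60, with 4 below 0 and 0 called. Of all tested genes 49.2% were above 0 and 5.68% were called. OAS3, which makes the 2-5A activator of RNase L, was at 16.6 and 17.9 CPM untreated and 13.7, 14.3 and 13.2 at 96 h (-0.33 ± 0.12, adjusted p = 0.108). ADAR was at 276 and 292 CPM untreated and 272, 250 and 239 at 96 h (-0.16 ± 0.07, adjusted p = 0.175). In both the 96 h libraries lay below the untreated ones. EIF2AK2, the kinase PKR, was at -0.03 (95% interval -0.21 to 0.14).

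Of 10 signalling and transcription factors, all tested, 1 passed at 96 h (5.68% of all tested genes were called). DTX3L, a ubiquitin ligase that pairs with PARP9, was at 36.1 and 36.6 CPM untreated, 37.9, 39.6 and 32.7 at 24 h, 29.8, 33.1 and 31.2 at 48 h, 33.0, 34.5 and 31.0 at 72 h and 30.0, 28.6 and 28.2 at 96 h. All 96 h libraries lay below the untreated ones, and the fall was -0.33 ± 0.09 (adjusted p = 0.0318). DESeq2 gave it an adjusted p of 0.0535. PARP9, named after its values were seen because it shares the promoter element and overlaps DTX3L by 339 bases on the other strand, had 0.01 (95% interval -0.24 to 0.25).

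None of STAT2, IRF9, IRF7 and IRF1, the factors that turn the program on, passed at any time. STAT2 was at 72.2 and 96.6 CPM untreated and 93.9, 80.2 and 81.7 at 96 h, a change of 0.01 with an interval of -0.58 to 0.61. IRF9 had 0.12 (-0.10 to 0.34) and IRF7, the factor that amplifies type I interferon, 0.19 (-0.22 to 0.61). IRF1, which is induced early by interferon gamma, was at 16.2 and 16.0 CPM untreated and 20.0, 23.4 and 20.0 at 24 h. All treated libraries at each time were above the untreated ones, with changes of 0.39 at 24 h and 0.27 ± 0.11 at 96 h (adjusted p = 0.15). IFI35 had 0.45 at 24 h and 0.45 ± 0.18 at 96 h (adjusted p = 0.143).

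LGALS3BP, a secreted glycoprotein that binds galectins, was at 132 and 137 CPM untreated, 135, 156 and 139 at 24 h, 146, 147 and 137 at 48 h, 138, 144 and 160 at 72 h and 166, 156 and 175 at 96 h. The 96 h libraries did not overlap with the untreated ones, and the rise was 0.30 ± 0.08 (adjusted p = 0.0206). EPSTI1, an interferon-induced gene named for the interaction of epithelium and stroma, was at 4.16 and 3.17 CPM untreated and 5.19, 5.92 and 6.48 at 96 h. Its change was the largest of the tested genes at 96 h, 0.67 ± 0.23, and did not pass (adjusted p = 0.089). IFI6 had 0.26 (adjusted p = 0.346) and IFI44 -0.28 (adjusted p = 0.528). The 7 genes of this group hold 2 below the filter.

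Interferon transcripts were close to absent. Of 21 interferon genes in the table, 19 had 0 counts in all 14 libraries, IFNB1 among them, IFNE had 79 counts in total and IFNL3 1. Of 11 receptor and JAK-STAT genes 10 were tested and 0 called at 96 h (5.68% of all tested genes). Their fold changes ranged from -0.30 to 0.25, with 5 at an unadjusted p under 0.05 (19.8% of all genes) and a lowest adjusted p of 0.0954. IFNAR1 had 0.04, IFNAR2 0.07 and JAK1 -0.08, while IFNGR1 had 0.25 and JAK2 -0.30. Among 11 tested genes of nucleic acid sensing 0 were called (5.68% of all tested genes), 4 were above 0 (49.2%) and 7 below. Their median was -0.034, with a range of -0.47 (TREX1, a DNA exonuclease) to 0.20. Values were 0.02 for cGAS (listed as MB21D1) and 0.06 for STING (listed as TMEM173). Among 7 tested negative regulators 0 were called (5.68% of all tested genes), and SOCS1, which inhibits JAK kinases, had 0.45 ± 0.20 (adjusted p = 0.221). Lists this short hold too few genes to set 0 calls against that share.

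The treated times were then compared with each other, in the same fit of all 14 libraries. Between 24 and 96 h 2 genes rose (2.58% of all genes) and 1 fell (0.621%) of 47 (3.2% called in all). TRIM22 rose by 0.34 ± 0.08 (adjusted p = 0.0255), HLA-B by 0.31 ± 0.07 (0.0182), and DTX3L fell by 0.34 ± 0.08 (0.0185). In each of the 3 the 96 h libraries did not overlap with the 24 h ones. Over the list that held for 6 genes that were higher (10.8% of all genes) and 3 that were lower (8.2%). The same 3 passed for a slope over the 4 times, at 0.12, 0.10 and -0.10 per day (adjusted p = 0.0142, 0.0104 and 0.0348), where 3.76% of all genes were called, 2.96% upward and 0.8% downward. EPSTI1 (0.59 ± 0.20, adjusted p = 0.128) and IFI6 (0.31 ± 0.13, adjusted p = 0.259) did not pass, nor did IFI44 (-0.37) or IFIT1 (-0.27). The median over the list was -0.05 between 24 and 96 h. The calls change with the libraries: without the 24 h replicate 1, 0 were called (259 of all genes). Without the 96 h replicate 1 only DTX3L was called (223 of all genes), without replicate 2 only HLA-B (310), and without replicate 3 only TRIM22 (262). Without the 24 h replicate 2 the calls were LGALS3BP and TRIM22 (350 of all genes), and without the 24 h replicate 3 DTX3L and HLA-B (502). When only the libraries of the compared times were fitted (306 of all genes called), TRIM22 and HLA-B were called and DTX3L was not (adjusted p = 0.055). The slope likewise called TRIM22 and HLA-B (452 of all genes).

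Between consecutive times edgeR called none of the 47. From 24 to 48 h 4 had an unadjusted p under 0.05 (4.05% of all genes, with 0% called), from 48 to 72 h 3 (5.32%, with 0.0598% called) and from 72 to 96 h 11 (11.5%, with 0.516% called). The joint test of all 4 times against untreated cells called TRIM22 (adjusted p = 0.00558) and HLA-B (adjusted p = 0.0125), 2 of 47, against 3.25% of all genes.

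The fold changes at 96 h were also set out by the promoter element. The 25 tested genes with it had a median of 0.06, with 17 above 0, and the 14 without had a median of 0.07, with 8 above 0. Of the genes called at 96 h, LGALS3BP, PLSCR1 and DTX3L carry it, HLA-B and HLA-C have no match, and no promoter was matched for TRIM22.

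Some of the scatter within groups ran with MALAT1, a long RNA retained in the nucleus, which was at 52.1 to 409 CPM over the 14 libraries, at 95.1 and 271 in untreated cells and at 194, 77.3 and 123 at 96 h. This relation was examined after the data were seen, over 47 genes, on log2(CPM + 0.5), with permutation tests of 100000 resamples, two-sided. MALAT1 was shuffled over all 14 libraries regardless of group, so the p-values do not test the scatter within groups. STAT2 had a Pearson r of 0.94 with MALAT1 (permutation p = 1e-05, the smallest these resamples give, adjusted p = 0.000235). Its Spearman rho was 0.95 (permutation p = 2e-05, adjusted p = 0.00047). Its r was 0.93 without the 2 libraries farthest from the median of MALAT1, and 0.97 within groups. UBA7, the enzyme that activates ISG15, had an r of 0.90 (permutation p = 1e-05, adjusted p = 0.000235), 0.83 without those libraries and 0.93 within groups. Its rho was 0.92 (permutation p = 2e-05, adjusted p = 0.00047). TRIM25 had an r of 0.79 (adjusted permutation p = 0.0226) and a rho of 0.83 (adjusted permutation p = 0.00642). TRIM22 had an r of 0.33 over all libraries (adjusted permutation p = 0.384) and of 0.89 within groups. Within groups the other genes called at 96 h had 0.89 (DTX3L), -0.05 (LGALS3BP), -0.59 (HLA-C), -0.67 (HLA-B) and -0.79 (PLSCR1). The r within groups was not tested and was not set beside that of all genes.

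B2M and UBE2L6 ran the other way. B2M had an r of -0.77 (adjusted permutation p = 0.0273), -0.93 within groups, and a rho of -0.81 (adjusted permutation p = 0.0123). UBE2L6, the conjugating enzyme for ISG15, had an r of -0.73 (adjusted permutation p = 0.0338) and a rho of -0.75 (adjusted permutation p = 0.0284). These 5 of 47 passed. Of 12685 genes with a mean of at least 1 CPM, 14% had an r with MALAT1 at least as large in size as that of UBE2L6, the weakest of the 5, so the count of 5 is not above that of all genes. The share with an r at least as high was 1.14% for STAT2, 2.21% for UBA7 and 6.72% for TRIM25, and the share with an r as low or lower was 2.81% for B2M and 4.55% for UBE2L6. UBA7 overlaps MIR5193 and TRIM25 overlaps MIR3614 on the same strand. With a score of 4 nuclear RNAs as a covariate, edgeR called 12 of the 47 at 96 h (1864 of all genes), among them B2M, ISG15, EPSTI1, IFITM2 and IFITM3.

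**Figure D5:**
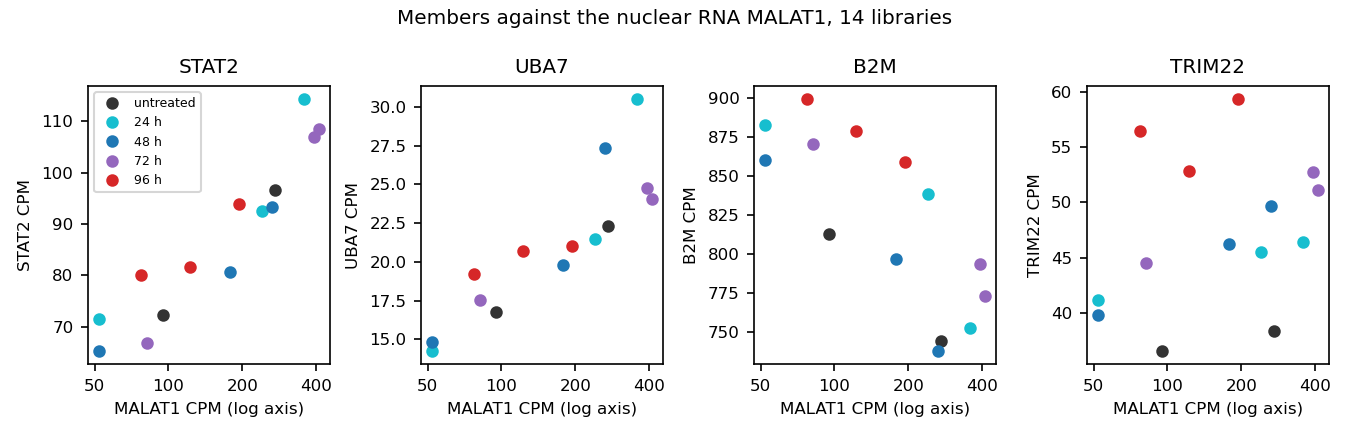
Level of 4 genes in CPM against MALAT1 in CPM (log axis) in the 14 libraries, coloured by time. STAT2 and UBA7 rise with MALAT1 and B2M falls, while the 3 libraries of TRIM22 at 96 h lie above both untreated ones.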

How the data were processed

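Polyadenylated RNA was sequenced from stranded libraries, per the labels' protocols. The authors deposited raw counts per gene, made with STAR 2.5.3a and HOMER on hg19, per the submitters' processing notes; strand and multi-mapping settings are not given in the sources used here. Columns were joined to samples by title. The 57 genes and the other lists were chosen with earlier results of these data known.

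Counts were filtered (edgeR filterByExpr, minimum count 10, minimum total 15), scaled by TMM (0.971 to 1.02) and fitted over all 14 libraries with 1 mean per group, using edgeR 4.0.16 in R 4.3.3. The SE was taken as the absolute log2 fold change over the root of the F statistic. DESeq2 1.42.0, limma 3.58.1 (voom), median-ratio scaling, no filter, a replicate block, covariates and left-out libraries were alternatives. The genes named are those called, the 3 largest rises and falls (average log2 CPM 1 or more) in each comparison with untreated cells and in 96 h against 24 h, and 18 classical genes given throughout; PARP9, UBA7 and UBE2L6 were named after their values were seen. The fit was also run on simulated counts, drawn independently with the same dispersion for every gene. These do not carry the scatter within groups seen here, and no call rests on them.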

Additional observations from a re-analysis of the deposited data

Results flagged for a closer look

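For 3 genes the change at 96 h of ddC differed from the change at 24 h by a test of the difference itself, made in the fit of all 14 libraries. TRIM22 differed by a log2 fold change of 0.34 (edgeR adjusted p = 0.0255), HLA-B by 0.31 (edgeR adjusted p = 0.0182) and DTX3L by -0.34 (edgeR adjusted p = 0.0185). In all 3 the libraries of the 2 times did not overlap. Fitted on the compared libraries alone, TRIM22 and HLA-B passed and DTX3L did not (edgeR adjusted p = 0.055).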

How the results depend on the processing

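No result reversed its direction among called values. At 24 and 48 h 0 of the genes were called under every alternative run. At 72 h the count was 1 without the filter (TRIM22), where 47 of all genes were called. It was 2 with a covariate for nuclear RNA (HLA-B and TRIM22), where the median was 0.020 and 251 of all genes were called. At 96 h the count of 6 (759 of all genes) became 12 with the nuclear covariate (1864) and 11 when only the compared groups were fitted (1646). It became 0 with the opposite-strand measure (83 of all genes), where the median was 0.090. For 96 h against 24 h the count was 6 with the nuclear covariate (1094 of all genes), with a median of -0.0055. It was 0 with the opposite-strand measure (15 of all genes). For the slope it was 7 and 0 (1281 and 10 of all genes), and for the joint test 9 and 0 (1379 and 58). For 72 to 96 h it was 1 with the nuclear covariate (243 of all genes). The median from 48 to 72 h was 0.028 with the opposite-strand measure. The causes were not tested. With that covariate TRIM22 had a change of 0.54 at 96 h and HLA-B of 0.47, and neither passed (edgeR adjusted p = 0.14 and 0.137). DESeq2 called 6 genes at 96 h (757 of all genes), 4 of them shared, and limma-voom the same 6 (683 of all genes).

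Leaving out 1 library gave 1 to 8 calls at 96 h (174 to 1034 of all genes) and medians of 0.083 to 0.12. It gave 0 to 4 calls for 96 h against 24 h (223 to 545 of all genes), with medians of -0.071 to -0.0010. For the slope it gave 1 to 3 (280 to 537 of all genes). For 72 to 96 h it gave 0 to 3 (5 to 243 of all genes), with medians of 0.046 to 0.11. For the joint test it gave 1 to 6 (223 to 583 of all genes). Medians were 0.061 to 0.12 at 24 h, 0.015 to 0.097 at 48 h, 0.013 to 0.066 at 72 h and -0.040 to 0.022 from 48 to 72 h. The 8 calls at 96 h, 3 from 72 to 96 h and 6 in the joint test came without the 72 h replicate 3. TRIM22 passed at 96 h whichever library was left out, and HLA-B failed without untreated replicate 2. HLA-C, LGALS3BP, DTX3L and PLSCR1 failed when either untreated library, or the 96 h replicate 1 or replicate 3, was left out. DTX3L also failed without the 96 h replicate 2. PLSCR1 also failed without the 48 h replicate 3 and without the 72 h replicate 1 or replicate 2.

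Over 26 same-numbered pairs of libraries the correlation of deviations from the group means was -0.361 to 0.611, with a median of -0.029. Over 52 other pairs it was -0.489 to 0.512, with a median of 0.042. The deviations of the 2 untreated libraries mirror each other, and the ranges overlap. These values cannot decide whether replicate numbers mark pairs. With the replicate block 4 genes were called at 96 h (687 of all genes), without DTX3L (edgeR adjusted p = 0.0571) and PLSCR1 (0.0699). For 96 h against 24 h 3 were called (478 of all genes). The joint test could not be run on the compared groups only. With 2 untreated libraries, genes under about 1 CPM have wide intervals.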
